A study of Mus musculus with 55 samples.

Results

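Undamaged mouse liver was examined 7 months (7M) after the deletion of *Rnf43* and *Znrf3*. The libraries were chosen by their labels (no chronic damage, 7 months, genotype) and by the study's list of libraries, without use of a measured value, and they are 10 of the 55 samples of the series. Bulk RNA was sequenced from 5 livers mutant for both genes (R&Zdel) and from 5 control livers (R&Zflox), which the labels call wild type and which carry the same floxed alleles undeleted. All mice were adult and of the C57BL/6 strain. By the study's list, all 10 belong to the Tamoxifen experiment, in which Tamoxifen induced the deletion in mice with a Cre recombinase (CreERT2) driven by the albumin promoter, and by its methods the controls of that experiment received oil alone. This promoter is active in hepatocytes, so that the other cells of a whole liver, endothelial cells, macrophages and stellate cells among them, keep both genes. R&Zdel 1 and 2 and R&Zflox 1 and 5 belong to the first of 2 sequencing batches, and R&Zdel 3, 4 and 5 and R&Zflox 2, 3 and 4 to the second. Among these 10, R&Zflox 5 is the only mouse listed as female, and the title of its record names another condition than its other labels and the study's list do. For comparison, 4 R&Zdel and 4 R&Zflox livers of 1 month (1M), and 2 and 5 livers of 3 months (3M), were kept in the same model. At 1M 2 livers of each genotype were listed as female. At 3M the R&Zdel liver of the first batch was listed as female, and that of the second batch and all R&Zflox livers as male. At 1M and in the second batch at 3M the deletion was induced by a virus instead of Tamoxifen, so that time and the way of induction cannot be told apart.

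Reads counted on genes ranged from 16322628 to 32168223 per library. Levels are given as CPM, a gene's counts brought to a common library total, after scaling by edgeR's TMM factors, in the order of R&Zdel 1 to 5 and R&Zflox 1 to 5. A difference is a log2 fold change of R&Zdel over R&Zflox with its standard error (SE), from a model with terms for genotype at each time point, sex and batch, and genes count as called where the p adjusted after Benjamini and Hochberg was below 0.1 and the log2 fold change beyond 1 or −1. *Xist*, transcribed from the inactive X chromosome, had 155 unscaled CPM in R&Zflox 5 and at most 1.18 in the other 9 libraries, which matches the listed sexes. The defining hepatocyte transcript *Alb* had 17138 to 25783 CPM in R&Zdel and 53709.7 to 73390.1 CPM in R&Zflox livers, whereas 10 of 20 pancreas markers had no count in any library. Genes shorter than 1000 bases took 8.74% to 20.9% of the counts in R&Zdel and 10.2% to 14.1% in R&Zflox livers, with the highest shares in R&Zdel 5 (20.9%) and R&Zdel 3 (17.2%) and the lowest in R&Zdel 4 (8.74%).

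RNF43 and ZNRF3 are membrane E3 ubiquitin ligases that remove Frizzled receptors from the cell surface and so dampen WNT signalling. In the liver lobule, WNT ligands from endothelial cells of the central vein keep β-catenin active in the hepatocytes beside it, which express the pericentral programme of glutamine synthesis and drug metabolism. Hepatocytes beside the portal vein, where this signal is low, express the periportal programme of urea synthesis and amino acid breakdown. In bulk RNA, fewer cells of a type and less RNA per cell cannot be told apart.

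β-catenin acts through TCF factors, whose core binding sequence on DNA is CTTTGAT. This string was searched on both strands of the 250 bases before the start of each gene in RefSeq's promoter table (GRCm38.p6), which held an entry for 10101 of the genes tested, and was found in 233 of them (2.31%). It stood before 3 of the 28 genes called higher that had an entry (10.7%) and before 1 of the 22 called lower (4.55%). Among the listed zonation genes with an entry, 3 of 22 pericentral (13.6%) and 3 of 24 periportal genes (12.5%) held it. A match is only a run of letters, and neither a match nor its absence shows where TCF binds. The 4 stretches before changed genes that held the string are printed because the genes moved both ways: *Slc1a2*, *Lect2* and *Aldh16a1* rose in R&Zdel livers and *Hal* fell. Capitals mark the string, which reads ATCAAAG where it lies on the other strand.
Slc1a2, chr2:102706188-102706437, plus strand: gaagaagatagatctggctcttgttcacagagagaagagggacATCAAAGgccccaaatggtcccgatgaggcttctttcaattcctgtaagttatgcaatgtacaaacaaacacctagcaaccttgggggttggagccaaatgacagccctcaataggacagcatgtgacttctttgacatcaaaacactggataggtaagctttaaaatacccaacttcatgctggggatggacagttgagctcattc
Lect2, chr13:56548539-56548788, minus strand: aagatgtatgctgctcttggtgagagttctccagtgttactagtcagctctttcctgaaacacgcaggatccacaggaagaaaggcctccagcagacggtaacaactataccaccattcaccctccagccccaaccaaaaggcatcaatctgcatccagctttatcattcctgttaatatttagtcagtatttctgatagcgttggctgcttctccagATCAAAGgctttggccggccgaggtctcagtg
Aldh16a1, chr7:45154537-45154786, minus strand: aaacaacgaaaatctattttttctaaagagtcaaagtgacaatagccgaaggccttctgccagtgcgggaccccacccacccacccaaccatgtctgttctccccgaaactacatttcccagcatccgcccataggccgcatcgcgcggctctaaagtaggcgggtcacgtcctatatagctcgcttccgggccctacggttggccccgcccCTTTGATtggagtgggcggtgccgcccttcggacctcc
Hal, chr10:93488518-93488767, plus strand: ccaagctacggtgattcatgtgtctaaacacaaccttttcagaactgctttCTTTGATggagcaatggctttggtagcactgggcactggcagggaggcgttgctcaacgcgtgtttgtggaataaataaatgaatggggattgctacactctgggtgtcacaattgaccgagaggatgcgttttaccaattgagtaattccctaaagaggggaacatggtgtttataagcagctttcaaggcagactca
The string lay 207 bases before the start given in RefSeq's table for *Slc1a2*, 32 for *Lect2*, 38 for *Aldh16a1* and 199 for *Hal*. For *Slc1a2* that start is an internal one, since the deposited annotation places the gene at chr2:102658239-102790784 (mm10, plus strand) and the printed stretch lies inside it, and for *Lect2* the start lies a few bases inside the annotated gene.

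Of 12848 genes tested, 58 were called changed (0.451%), 32 higher (0.249%) and 26 lower (0.202%) in R&Zdel livers. The median log2 fold change of all genes was −0.016. Every R&Zdel library lay above every R&Zflox library for 112 genes (0.872%) and below for 102 (0.794%), and this held for 13 of the 32 called higher and 20 of the 26 called lower. An unadjusted p below 0.05 was reached by 718 genes that were higher (5.59%) and 424 that were lower (3.3%). The libraries weighed unequally, since 204 genes were called without R&Zdel 4 and 38 without R&Zflox 3, and 33 of the 58 genes remained called whichever of the 10 libraries was left out. Without R&Zdel 5 and R&Zflox 5, the libraries with the largest share of counts on short genes and with the other sex, 32 genes were called.

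**Figure D1:**
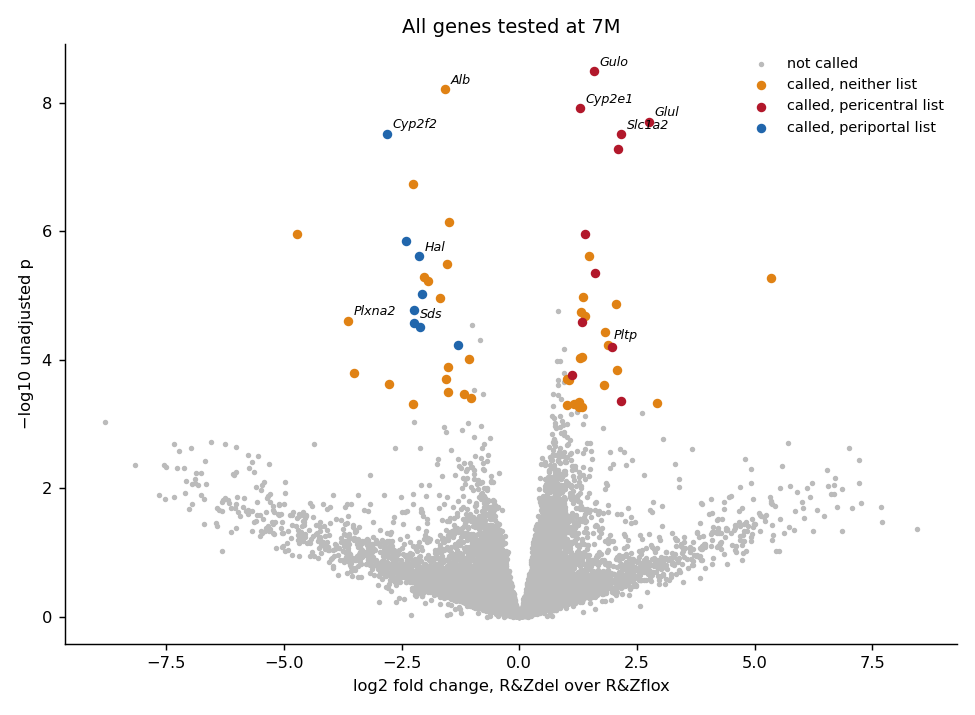
Log2 fold change of R&Zdel over R&Zflox livers at 7M (x axis) against −log10 of the unadjusted p (y axis) for the 12848 genes tested, with called genes of the pericentral list, of the periportal list and of neither in separate colours. The pericentral genes called all lie on the right and the periportal genes called all lie on the left.

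The deleted genes were measured first. *Rnf43* (chr11:87663087-87735539, plus strand) had 29.1, 34.7, 38.01, 25.02 and 77.7 CPM in the R&Zdel and 16.4, 19.3, 10.9, 11.9 and 10.5 CPM in the R&Zflox libraries, and every R&Zdel library was higher. *Znrf3* (chr11:5276329-5444847, minus strand) had 13.6, 12.8, 43.99, 63.4 and 58.3 CPM in R&Zdel and 9.07, 30.7, 19.6, 19.6 and 9.54 CPM in R&Zflox livers, which overlapped. On average both were higher, not lower, in livers labelled mutant. The log2 fold changes were 1.51 (SE 0.44, adjusted p = 0.221) for *Rnf43* and 1.10 (SE 0.28, adjusted p = 0.115) for *Znrf3*, and neither was called, although both were with edgeR's likelihood ratio test. The alleles lose only exons of the RING domain, and a count over the whole gene does not show which exons were read, so that these values do not check the deletion.

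The pericentral programme was higher. Of 32 listed pericentral genes, all tested, 11 were called higher and 0 lower, against 0.249% of all genes called higher, and 29 of 32 lay above 0. Their median log2 fold change was 0.96, and the summed level of the list was 38195 to 56335 unscaled CPM in R&Zdel and 22328 to 25438 in R&Zflox livers, without overlap. *Glul* (chr1:153899929-153909723, plus strand), the glutamine synthetase that marks the innermost hepatocytes around the central vein, had 563, 590.3, 1168, 293 and 1365 CPM in R&Zdel livers. In R&Zflox livers its level was 144, 148, 92.3, 64.2 and 167 CPM. R&Zdel 4 was the lowest mutant and still stood above each control, and *Glul* had a change of 2.75 on the log2 scale (SE 0.34, adjusted p = 6.33e-05).

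*Cyp2e1* (chr7:140763819-140774990, plus strand), the P450 enzyme of ethanol and small solvents, was the most abundant member, at 31519.8, 22818, 25422, 23942 and 26633 CPM in R&Zdel and 11435, 10976, 12263, 9205 and 9092 CPM in R&Zflox livers. All mutants were above all controls, with R&Zdel 1 the highest, and the log2 fold change was 1.29 (SE 0.15, adjusted p = 5.16e-05). *Gulo*, which catalyses the last step of vitamin C synthesis in mice, had 1758, 1833, 1596, 1389 and 1706 CPM in R&Zdel livers. Its 635, 489.9, 525, 493 and 529 CPM in R&Zflox livers left a wide gap, and the change was 1.59 (SE 0.18, adjusted p = 3.9e-05). *Slc1a2*, a glutamate transporter of the same perivenous cells as *Glul*, had 483, 289, 551, 229 and 559 CPM against 102, 132, 64.7, 90.7 and 122 CPM. All 5 mutants stood above all 5 controls, with a change of 2.16 (SE 0.27, adjusted p = 6.58e-05).

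The glutathione transferases *Gstm2* and *Gstm3*, which conjugate electrophiles, belonged to the same group. *Gstm2* had 460.2, 409, 420.4, 153 and 429.8 CPM in R&Zdel and 79.2, 128, 87.6, 75.5 and 87.9 CPM in R&Zflox livers, and *Gstm3* had 346, 352, 281, 217 and 189 and 70.4, 90.9, 52.1, 141 and 78.96 CPM. Neither gene overlapped between the genotypes, at 2.09 (SE 0.27, adjusted p = 9.74e-05) for *Gstm2* and 1.61 (SE 0.27, adjusted p = 0.00357) for *Gstm3*. Their near-identical neighbours in the cluster can share reads, so that the values of single members are uncertain. *Lect2*, a secreted hepatokine, had 305 to 668 CPM in R&Zdel and 128 to 411 CPM in R&Zflox livers, which overlapped because R&Zflox 5 reached 411, with a change of 1.33 (SE 0.26, adjusted p = 0.0115).

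A further 3 called members depended more on single libraries or overlapped. *Cyp2a5*, a coumarin hydroxylase, had 2195, 915, 644, 285 and 782 CPM in R&Zdel and 374, 292, 209, 179 and 189.8 CPM in R&Zflox livers, a change of 1.98 (SE 0.41, adjusted p = 0.0223), with R&Zdel 4 inside the range of the controls. It stayed called with any 1 library left out but not over male libraries alone (1.67, adjusted p = 0.116), without the sex term (1.82, adjusted p = 0.134) or with the 7M libraries alone (1.54, adjusted p = 0.319). *Slc16a10*, a transporter of aromatic amino acids, had 119, 86.3, 83.4, 143 and 108 CPM against 43.5, 60.2, 42.9, 43.7 and 59.4 CPM and a change of 1.12 (SE 0.25, adjusted p = 0.046), and stayed called in 5 of the 10 fits that left out 1 library. *Rhbg*, an ammonia transporter, had 62.5, 99.2, 9.37, 2.34 and 14.7 CPM in R&Zdel and 14.6, 1.83, 1.88, 2.03 and 25.8 CPM in R&Zflox livers. The first batch held most of its reads in both genotypes, and its change of 2.17 (SE 0.53, adjusted p = 0.0876) stayed called in 1 of those 10 fits. Of the 21 members that were not called, 11 were higher at an unadjusted p below 0.05, so that 22 of the 32 reached this limit against 5.59% of all genes.

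**Figure D2:**
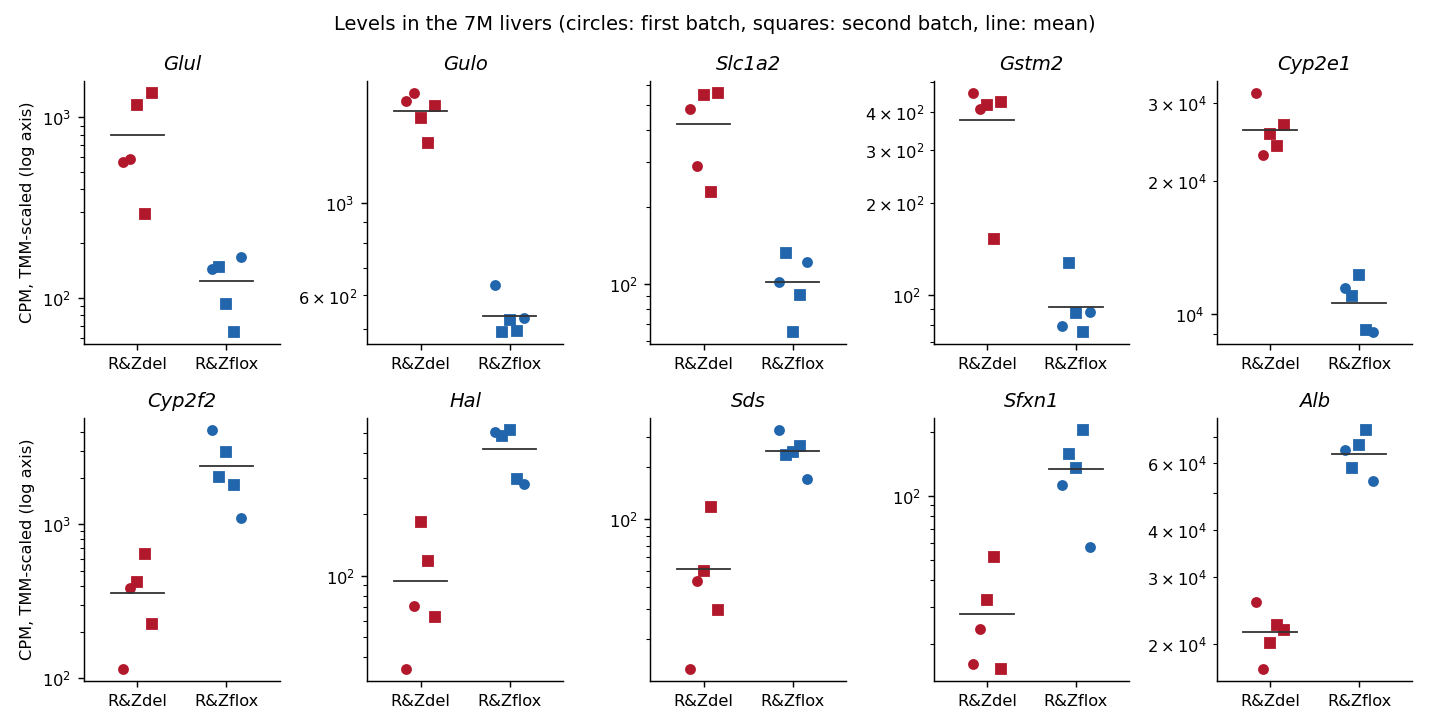
CPM after TMM scaling (log axis) of 5 genes called higher and 5 called lower at 7M, 1 point per library, with the first batch as circles, the second as squares and the mean of each genotype as a line. In each panel all 5 R&Zdel libraries lie on one side of all 5 R&Zflox libraries.

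The periportal programme was lower. Of 34 listed periportal genes, all tested, 0 were called higher and 8 lower, against 0.202% of all genes, and 27 of 34 lay below 0, with a median log2 fold change of −0.75. The summed level of the list ranged from 13043 to 27433 unscaled CPM in R&Zdel and from 21010 to 29999 in R&Zflox livers, so that its total overlapped where that of the pericentral list did not. *Cyp2f2* (chr7:27119955-27133660, plus strand), a P450 enzyme that labels portal hepatocytes, had 115, 384, 419.6, 642 and 225 CPM in R&Zdel livers. R&Zflox livers had 4116, 2038, 2934, 1810.4 and 1098 CPM. Each mutant was below each control, and the change was −2.81 (SE 0.35, adjusted p = 6.58e-05), or 7.03-fold lower.

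*Hal*, the histidine ammonia-lyase that begins histidine breakdown, had 35.04, 71.3, 183, 118 and 62.6 CPM in R&Zdel and 503.6, 482, 518, 297 and 281 CPM in R&Zflox livers, a change of −2.12 (SE 0.35, adjusted p = 0.00226). *Sds*, the serine dehydratase, had 13.4, 43.4, 49.5, 118 and 29.6 CPM against 331, 235, 246, 266 and 170.1 CPM, a change of −2.23 (SE 0.43, adjusted p = 0.0116). For both genes the highest mutants remained under the lowest control. *Hsd17b13*, a lipid droplet protein, had 91.2, 80.7, 77.5, 188 and 27.6 CPM in R&Zdel and 644, 292, 338, 387 and 479.8 CPM in R&Zflox livers and fell by 2.07 on the log2 scale (SE 0.37, adjusted p = 0.00605). *Ctsc*, the protease cathepsin C, had 10.02, 15.3, 11.95, 24.9 and 9.01 CPM against 62.96, 47.2, 80.4, 94.3 and 117 CPM (log2 change −2.24, SE 0.42, adjusted p = 0.00902). *Aldh1b1*, a mitochondrial aldehyde dehydrogenase, had 15.4, 19.6, 16.6, 26.4 and 12.2 CPM against 52.1, 77.8, 80.6, 146 and 69.98 CPM (log2 change −2.11, SE 0.41, adjusted p = 0.0123). The genotypes were apart in all 3.

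*Etnppl*, a phospho-lyase that degrades phosphoethanolamine, had 4.23, 9.67, 44.7, 60.3 and 78.01 CPM in R&Zdel and 103, 221, 249.7, 212 and 52.1 CPM in R&Zflox livers (log2 change −2.41, SE 0.38, adjusted p = 0.00149). *Gls2*, the liver glutaminase, had 99.2, 119, 136, 234 and 141 CPM against 407, 351, 385, 496 and 170.0 CPM (log2 change −1.30, SE 0.27, adjusted p = 0.0214). In both genes the female control R&Zflox 5 was the lowest control and lay among the mutants, and without R&Zflox 1 *Gls2* was no longer called. Counted by an unadjusted p below 0.05, 17 periportal genes were lower against 3.3% of all genes, and 2 were higher against 5.59%. The members thus ranged from −2.81 to 1.82.

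**Figure D3:**
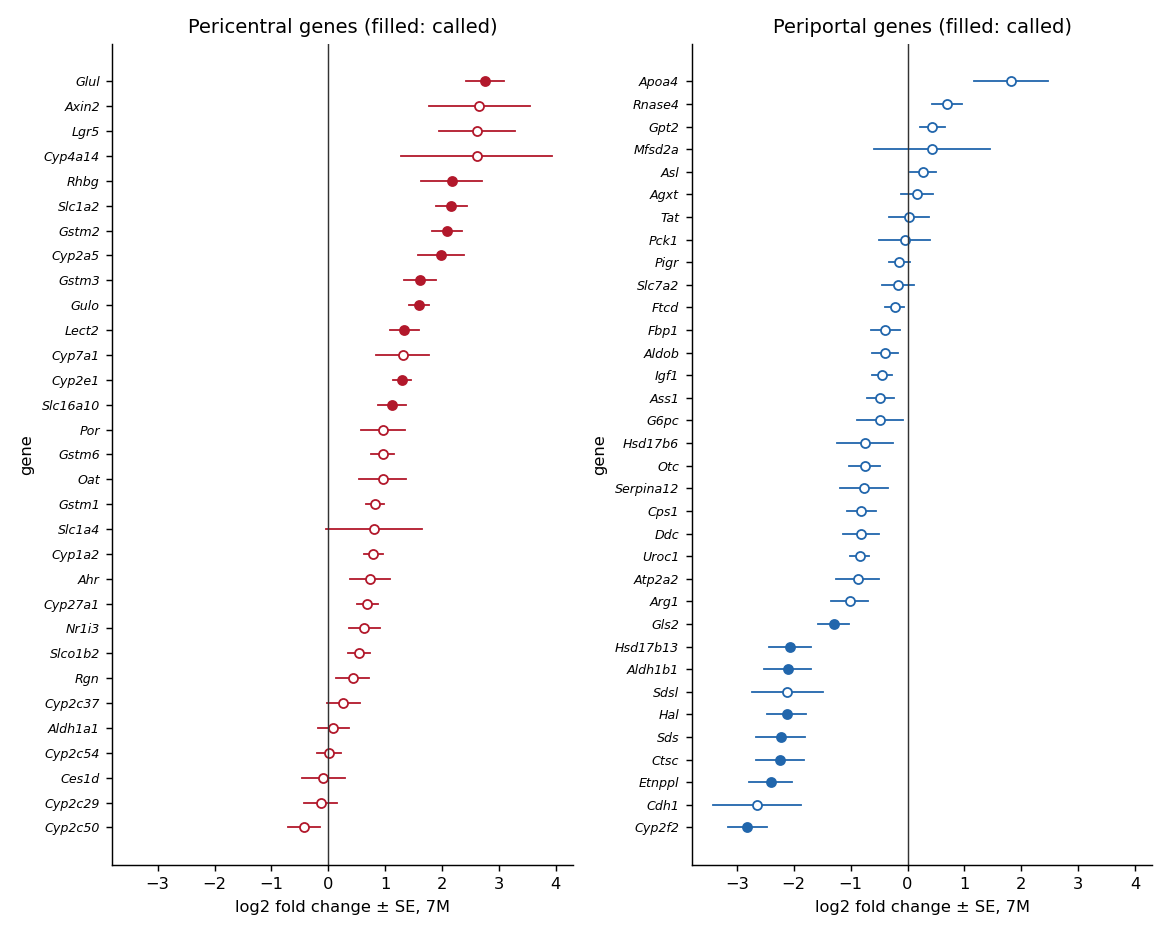
Log2 fold change of R&Zdel over R&Zflox livers at 7M with 1 SE on either side (x axis) for 31 of the 32 pericentral (left panel) and the 34 periportal genes (right panel), sorted, with called genes filled. The pericentral genes lie to the right of 0 except for 3, and the periportal genes to the left except for 7.

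Amino acid breakdown was divided. Of 38 tested genes of amino acid catabolism 1 was called higher and 4 lower, or 13.2% in either direction against 0.451% of all genes, and the median log2 fold change was 0.05. Besides *Hal*, a further gene of histidine breakdown fell, *Amdhd1*, the imidazolonepropionase downstream of it, which had 69.7, 97.99, 80.6, 179 and 141 CPM in R&Zdel and 305, 355, 329, 336 and 348 CPM in R&Zflox livers. Its groups did not overlap, with a change of −1.48 (SE 0.22, adjusted p = 0.001). *Gldc*, the glycine decarboxylase, had 8.31, 14.7, 18.6, 25.4 and 0.715 CPM against 61.3, 35.6, 72.4, 43.5 and 118 CPM and a change of −2.26 on the log2 scale (SE 0.56, adjusted p = 0.0903), which stayed called in 3 of the 10 fits that left out 1 library. *Prodh*, the proline dehydrogenase, was the member called higher, with 599.6, 533, 554, 227 and 616 CPM in R&Zdel and 273, 277, 155, 131 and 167 CPM in R&Zflox livers. R&Zdel 4 lay inside the control range, and the change was 1.30 (SE 0.24, adjusted p = 0.00902).

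Ammonia enters 2 routes in liver, the urea cycle of periportal and glutamine synthesis of pericentral hepatocytes. Of 21 genes of ammonia entry and the urea cycle, only *Glul* was called higher and only *Gls2* lower, against 0.249% and 0.202% of all genes, and the median was 0.00. *Cps1*, which makes carbamoyl phosphate, had 665, 803, 529.8, 1561 and 710.0 CPM in R&Zdel and 1529, 1650.0, 1484, 1752 and 1032 CPM in R&Zflox livers. R&Zdel 4, at 1561, stood among the controls, and the value of −0.81 (SE 0.25, adjusted p = 0.27) was not called. *Nags*, whose product activates CPS1, had 60.8 to 149.7 CPM in R&Zdel and 58.5 to 77.6 CPM in R&Zflox livers, a value of 0.76 (SE 0.22, adjusted p = 0.232).

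Targets and feedback genes of canonical WNT signalling were less uniform than the zonation genes. Of 17 listed, of which *Lgr5* and *Axin2* also stand in the pericentral list, 15 were tested, 0 were called, 8 lay above and 7 below 0, and the median log2 fold change was 0.16, or 0.63 over male libraries alone. An unadjusted p below 0.05 was reached by 4 that were higher and 1 that was lower, against 5.59% and 3.3% of all genes. *Lgr5*, an R-spondin receptor, had 11.7, 8.72, 22.02, 28.5 and 18.1 CPM in R&Zdel and 2.51, 6.10, 0.194, 0.742 and 6.04 CPM in R&Zflox livers, without overlap. *Axin2*, a scaffold of the β-catenin destruction complex, had 5.19, 6.02, 47.9, 3.45 and 40.8 CPM against 1.98, 7.17, 0.970, 1.58 and 2.82 CPM. R&Zdel 3 and 5 stood far above the other 3 mutants, which lay in the range of the controls. *Tnfrsf19*, a TNF receptor family member, had 28.3, 21.9, 67.7, 19.3 and 11.9 CPM against 4.78, 0.494, 3.04, 3.07 and 4.95 CPM, without overlap. *Tbx3*, a transcription factor, had 21.4, 15.02, 41.3, 25.7 and 49.9 CPM against 6.71, 25.1, 8.34, 17.1 and 11.1 CPM, with overlap. The values of *Lgr5*, 2.61 (SE 0.67, adjusted p = 0.114), *Axin2*, 2.66 (SE 0.89, adjusted p = 0.325), *Tnfrsf19*, 3.38 (SE 1.20, adjusted p = 0.362), and *Tbx3*, 1.21 (SE 0.43, adjusted p = 0.362), did not pass the adjusted threshold.

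A further list of 33 pathway genes, which shares 2 genes with the list above, took in the deleted genes, R-spondins and their LGR receptors, Frizzled and LRP receptors, the intracellular components down to β-catenin and its TCF partners, and the factors that WNT secretion needs, and no WNT ligand. Of these, 26 were tested and 0 called, with a median of −0.36, 10 above and 16 below 0. At an unadjusted p below 0.05, 4 were higher and 4 lower, against 5.59% and 3.3% of all genes. *Lrp6*, a co-receptor of Frizzled, had 14.2, 12.9, 17.1, 28.7 and 23.5 CPM in R&Zdel and 23.01, 71.6, 47.5, 33 and 23.03 CPM in R&Zflox livers. The 3 controls of the second batch stood above all mutants, and the value of −0.998 (SE 0.32, adjusted p = 0.299) was not called. The receptors' RNA does not measure their amount at the cell surface, where RNF43 and ZNRF3 act.

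Among the P450 and glutathione genes, those called were members of the zonation lists except for *Cyp2a4*. Of 69 tested cytochrome P450 genes, 3 were called higher (*Cyp2e1*, *Cyp2a5* and *Cyp2a4*) and 1 lower (*Cyp2f2*), or 5.80% against 0.451% of all genes, and their median was 0.06. Of 30 glutathione transferases and NRF2 targets, 2 were called (6.67%), *Gstm2* and *Gstm3*, both higher. In this list 7 genes were higher and 1 was lower at an unadjusted p below 0.05, against 5.59% and 3.3% of all genes, and the median was 0.20. *Gstm1*, at 2807 to 4885 CPM in R&Zdel and 1731 to 2318 CPM in R&Zflox livers, and *Gstm6*, at 406 to 548 and 164 to 282 CPM, did not overlap between the genotypes. They passed the adjusted p but not the limit on the fold change, with 0.82 (SE 0.15, adjusted p = 0.00902) for *Gstm1* and 0.96 (SE 0.20, adjusted p = 0.0233) for *Gstm6*. Of 25 UDP-glucuronosyltransferases and sulfotransferases, *Ugt2b38* alone was called (4.0% against 0.451% of all genes). It was lower at 0.957, 1.42, 0.108, 0.553 and 0.215 CPM against 22, 6.01, 19.6, 5.44 and 0.523 CPM, and its call ended without the sex term. Of 28 steroid dehydrogenases and reductases, 0 were called higher and 2 lower, *Hsd17b13* and *Hsd11b1* (7.14% against 0.451% of all genes). *Hsd11b1*, which regenerates active glucocorticoid, had 723, 386, 248, 582 and 125 CPM in R&Zdel and 1331, 796, 1596, 1047 and 1202 CPM in R&Zflox livers, each mutant below each control, and a change of −1.52 on the log2 scale (SE 0.34, adjusted p = 0.0385).

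In the lists of fatty acid and triglyceride metabolism 1 gene was called higher and 1 lower. *Fasn*, the fatty acid synthase, was the only 1 of 21 tested genes of fatty acid synthesis that was called (4.76% against 0.451% of all genes), with 1059.5, 775, 1131, 333 and 1264 CPM in R&Zdel and 417, 520.5, 359.9, 379 and 219.8 CPM in R&Zflox livers. R&Zdel 4 stood below 4 of the controls, and the change of 1.20 (SE 0.30, adjusted p = 0.0903) stayed called only when R&Zdel 4 was the library left out. The medians of this list were 0.83 in the first and −0.09 in the second batch. Of the other lipid lists, desaturation and elongation had 28 genes tested and 0 called (median 0.14). Triglyceride synthesis and lipid droplets had 36 tested, 0 called higher and 1 lower, or 2.78% against 0.451% of all genes (median 0.31). Fatty acid uptake and oxidation had 40 tested and 0 called (median 0.18), with 8 higher and 0 lower at an unadjusted p below 0.05, where 5.59% and 3.3% of all genes were.

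Among their members, *Eci2*, an isomerase of unsaturated fatty acid oxidation, had 425, 326, 419, 288 and 414 CPM in R&Zdel and 247, 217, 249.1, 194 and 215 CPM in R&Zflox livers. Its genotypes did not overlap, at a value of 0.73 (SE 0.19, adjusted p = 0.129) that was not called. *Elovl2*, an elongase of polyunsaturated fatty acids, had 384, 309, 834, 627 and 1159.5 CPM against 241, 391, 402, 597 and 277 CPM (log2 change 0.77, SE 0.21, adjusted p = 0.156). *Lpin2*, a phosphatidate phosphatase, had 224, 143, 405, 272 and 454 CPM against 114, 201, 140.2, 209.7 and 71.8 CPM (log2 change 1.01, SE 0.28, adjusted p = 0.197). *Nr1h3*, the oxysterol receptor LXRα, had 128 to 197 CPM in R&Zdel and 68.2 to 159.7 CPM in R&Zflox livers (log2 change 0.67, SE 0.21, adjusted p = 0.276). In *Elovl2*, *Lpin2* and *Nr1h3* at least 1 mutant lay within the control range and none was called. A further list took 27 genes from the study's own account of undamaged liver, which makes it no independent evidence of direction. Of these, 24 lay above and 3 below 0, with a median of 0.90, and 4 were called higher and 1 lower, against 0.249% and 0.202% of all genes. At an unadjusted p below 0.05, 18 were higher and 1 was lower, against 5.59% and 3.3%.

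Cholesterol synthesis genes leaned to one side without a call. Of 27 tested, 23 lay above and 4 below 0, 8 were higher and 0 lower at an unadjusted p below 0.05, against 5.59% and 3.3% of all genes, and the median was 0.38, 0.60 in the first and 0.37 in the second batch. *Mvd*, the mevalonate diphosphate decarboxylase, had 74.9, 127, 189, 64.1 and 121 CPM in R&Zdel and 40.1, 44.2, 46.6, 39.4 and 50.01 CPM in R&Zflox livers. It did not overlap between the genotypes, with a value of 1.39 (SE 0.36, adjusted p = 0.123).

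Bile acid and phospholipid handling held 1 call. *Pltp*, the plasma phospholipid transfer protein, had 535, 595, 532, 350.0 and 385 CPM in R&Zdel and 118, 91.7, 121, 181 and 94.5 CPM in R&Zflox livers. All mutants were above all controls, at 3.70-fold, with a change of 1.89 on the log2 scale (SE 0.39, adjusted p = 0.0214). The median was 0.32 over 19 genes of phospholipid synthesis and 0.20 over 28 of lipoproteins, and *Pltp* was the only gene called in either list (5.26% and 3.57%, against 0.451% of all genes). Of 32 genes of bile acid synthesis and transport 0 were called (median 0.14). *Cyp7a1*, the rate-limiting enzyme of the classical pathway, had 181, 79.7, 24.6, 143 and 185 CPM in R&Zdel and 43.3, 69.8, 66.9, 62.5 and 62.8 CPM in R&Zflox livers, where R&Zdel 3 was the lowest of the 10 libraries and 4 mutants were above the controls, at 1.30 (SE 0.46, adjusted p = 0.362). *Cyp27a1*, the sterol 27-hydroxylase, had 788 to 1154 CPM against 468 to 781 CPM without overlap (log2 change 0.69, SE 0.19, adjusted p = 0.186). *Abcb11*, the bile salt export pump, had 67.6 to 199 CPM against 185 to 311 CPM (log2 change −0.81, SE 0.22, adjusted p = 0.155). None of the 3 passed the adjusted threshold.

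Albumin RNA was lower. *Alb* (chr5:90460870-90476602, plus strand) had 25783, 17138, 20099, 22415 and 21659 CPM in R&Zdel and 64845, 58255, 66843, 73390.1 and 53709.7 CPM in R&Zflox livers. The highest mutant remained below the lowest control, and the change was −1.58 (SE 0.18, adjusted p = 3.9e-05), or 2.98-fold lower. Of 26 genes of hepatocyte identity, *Alb* alone was called (3.85% against 0.451% of all genes), and the median was 0.13. The transcripts of 2 abundant apolipoproteins were not called. *Apoa1*, the main protein of high-density lipoprotein, had 21309, 33635, 54867, 23938 and 78251 CPM in R&Zdel and 30086, 24348, 28536, 30058 and 18723 CPM in R&Zflox livers (log2 change 0.62, SE 0.25, adjusted p = 0.444). *Apoe*, a ligand of lipoprotein receptors, had 56637, 60322, 80176, 37758 and 106692 CPM against 52907, 42490.4, 42420.4, 39456 and 46679.8 CPM (log2 change 0.59, SE 0.21, adjusted p = 0.362). R&Zdel 1 and 4 stood below 4 of the controls for *Apoa1*, and R&Zdel 4 below all 5 for *Apoe*. Both were highest in R&Zdel 3 and 5, the libraries with the largest share of counts on genes shorter than 1000 bases. *Apoa1*, with 988 bases, is itself such a gene, and its counts are part of that share. The part of this share in the values of both genes was not tested.

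The acute-phase proteins, made by hepatocytes during inflammation, were not called in either direction, with 32 tested, 11 above and 21 below 0, and a median of −0.15. *Orm1*, an orosomucoid, had 571, 710.7, 458, 371 and 509 CPM in R&Zdel and 1124, 868, 918, 583 and 1027 CPM in R&Zflox livers and passed the adjusted p but not the fold limit (log2 change −0.77, SE 0.18, adjusted p = 0.0715). *Fgg*, the fibrinogen γ chain, had 2270.1, 2437, 1462, 3981 and 1065 CPM against 3379, 2874, 4573, 4539 and 4536 CPM (log2 change −0.83, SE 0.29, adjusted p = 0.356). Complement and coagulation genes had 39 tested, 0 called and a median of −0.14.

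The calls of genes that differ between the sexes in liver depended on the term for sex. Of 27 female-biased genes *Cyp2a4* was called higher, and of 32 male-biased genes *Ugt2b38* and *Mup1* were called lower, against 0.249% and 0.202% of all genes. Each of these calls ended without the sex term, and none of them ended when R&Zflox 5 was left out. *Cyp2a4*, a steroid hydroxylase nearly identical to *Cyp2a5*, had 33.4, 3.51, 2.64, 3.91 and 7.01 CPM in R&Zdel and 0.917, 0, 0.129, 0.148 and 234 CPM in R&Zflox livers. The female control was the highest of all 10 libraries and the male controls were the lowest 4. The log2 fold change of *Cyp2a4* was 5.36 (SE 0.92, adjusted p = 0.00384) in the model with sex. It was 5.54 in the second batch, which holds males alone, and −2.62 in the first batch, which holds the female control. *Mup1*, a major urinary protein, had 14.05, 24.1, 10.01, 1.57 and 2.07 CPM against 273, 39.8, 146, 3.27 and 0.121 CPM (log2 change −3.51, SE 0.78, adjusted p = 0.0446), with the lowest value in the female control. The members of both gene families share reads, which makes these values uncertain. The medians were 0.33 and −0.19 and turned to −2.84 and 0.16 without a term for sex.

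Markers of endothelial cells and of macrophages were lower on balance, with no call and with large differences between the mutants. Of 31 tested endothelial and angiocrine genes 27 lay below 0, 4 were lower and 0 higher at an unadjusted p below 0.05, against 3.3% and 5.59% of all genes, and the median was −0.67. Their summed level was 135 to 579 unscaled CPM in R&Zdel and 398 to 686 in R&Zflox livers, and 0 of the 31 had no count throughout. As log2(CPM + 1) relative to the mean of the R&Zflox livers of the same batch, the median of the list was −1.505, −0.15, −0.84, 0.10 and −1.42 in R&Zdel 1 to 5. R&Zdel 1, 3 and 5 were thus low and R&Zdel 2 and 4 near the controls. *Oit3*, expressed by sinusoidal endothelium, had 5.39, 21.5, 3.71, 14.1 and 0.715 CPM in R&Zdel and 24.6, 27.03, 22.1, 18.6 and 30 CPM in R&Zflox livers (log2 change −1.71, SE 0.63, adjusted p = 0.409). *Plvap*, a diaphragm protein of endothelial cells, had 16.4, 31.5, 10.4, 30.5 and 1.43 CPM against 49.5, 31.03, 24.4, 43.2 and 65.4 CPM (log2 change −1.11, SE 0.45, adjusted p = 0.445). Neither was called.

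Of 25 tested Kupffer cell and macrophage genes 20 lay below 0, 5 of them at an unadjusted p below 0.05 (3.3% of all genes), with a median of −0.73 and a summed level of 374 to 963 unscaled CPM in R&Zdel and 790 to 1669 in R&Zflox livers. *Timd4*, a receptor of resident Kupffer cells, had 1.36, 3.46, 2.10, 2.43 and 0.572 CPM in R&Zdel and 8.11, 10.2, 11.7, 6.53 and 12.5 CPM in R&Zflox livers, without overlap (log2 change −2.52, SE 0.94, adjusted p = 0.418). *Csf1r*, the receptor that macrophages need to survive, had 8.81, 21.8, 5.76, 12.9 and 9.30 CPM against 33, 32.7, 10.2, 24.8 and 45.3 CPM (log2 change −1.30, SE 0.50, adjusted p = 0.43). *Cd74*, the MHC class II invariant chain, had 97.7, 311, 126, 157 and 187 CPM against 285, 296, 224, 221 and 412 CPM (log2 change −0.71, SE 0.32, adjusted p = 0.522). The latter pair overlapped between the genotypes, and none of the 3 was called. The part of cell composition in the levels of these genes was not tested.

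Other cell types and inflammation gave no call. Stellate cell and matrix genes had 33 tested, 21 below 0 and a median of −0.62, and *Dcn*, the proteoglycan decorin, had 69.2, 123, 26, 191 and 20.9 CPM in R&Zdel and 147, 175, 198, 289 and 218 CPM in R&Zflox livers (log2 change −1.23, SE 0.40, adjusted p = 0.301). Chemokines and inflammation had 21 tested and a median of −1.16, and T, B and NK cell genes 23 and −0.78. Members of the T, B and NK cell list ranged from −4.83 to 5.10, and its median was 1.13 at 1M and 1.30 at 3M. Its summed level was 360 and 220 unscaled CPM in R&Zdel 3 and 4, above the 19.6 to 179 in R&Zflox livers. R&Zdel 1, 2 and 5 had 15.3, 28.03 and 92.96. MHC class II genes had 9 tested and −0.71, interferon-stimulated genes 35 and −0.02, and neutrophil genes 6 and −0.90. Cholangiocyte genes had 19 tested and 0.03. Their member *Krt8*, a keratin that hepatocytes also express, had 245, 294, 254, 191 and 348 CPM in R&Zdel and 163, 124, 162, 149 and 177 CPM in R&Zflox livers. It did not overlap between the genotypes but was not called (log2 change 0.75, SE 0.20, adjusted p = 0.144).

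Proliferation and growth genes were not called at 7M. Of 42 tested cell cycle genes 23 lay above and 19 below 0, 3 were higher and 0 lower at an unadjusted p below 0.05 (5.59% and 3.3% of all genes), and the summed level was 186 to 351 unscaled CPM in R&Zdel and 174 to 317 in R&Zflox livers. Growth factor and MAPK feedback genes had 31 tested and a median of −0.44. *Igfbp2*, a binding protein of insulin-like growth factors, had 258, 423, 318, 483 and 377 CPM in R&Zdel and 746, 384, 583, 679 and 653 CPM in R&Zflox livers (log2 change −0.74, SE 0.24, adjusted p = 0.307), and *Egr1*, an immediate early gene, had 2.82, 3.08, 0.162, 8.55 and 13.4 CPM against 16.8, 25.5, 41.3, 24.5 and 37.2 CPM (log2 change −2.16, SE 1.01, adjusted p = 0.536), of which only *Egr1* was without overlap. Genes linked to fetal liver and hepatocellular carcinoma had 27 tested and a median of −0.29, and p53 targets and cycle inhibitors 22 and −0.20. The unfolded protein and stress response had 29 tested and 0.11, the circadian clock 22 and −0.06, and the respiratory chain 47 and 0.02. Iron and metallothionein genes had 21 tested and −0.10, and glucose metabolism 38 and 0.04. In each of these 9 lists 0 genes were called. In glucose metabolism, *Pcx*, the pyruvate carboxylase, passed the adjusted p but not the fold limit, with 327 to 679 CPM in R&Zdel and 216 to 470.5 CPM in R&Zflox livers (log2 change 0.83, SE 0.20, adjusted p = 0.0731).

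Ribosomal protein genes followed single libraries. Of 50 tested, 43 lay above 0, 11 were higher and 0 lower at an unadjusted p below 0.05, against 5.59% and 3.3% of all genes, and the median was 0.42, 0.03 in the first and 0.65 in the second batch. Relative to the R&Zflox livers of the same batch it was −0.17, 0.14, 0.61, −0.04 and 1.22 in R&Zdel 1 to 5. R&Zdel 3 and 5 stood highest, the libraries with the largest share of counts on short genes, and the part of this share was not tested. Ribosomal protein genes such as *Rps15*, with 631 bases, are themselves short and add to that share. *Rps15* had 76.8, 134, 179.9, 42.2 and 324 CPM in R&Zdel and 98.5, 69.8, 63.4, 35.6 and 83.7 CPM in R&Zflox livers (log2 change 1.12, SE 0.36, adjusted p = 0.307).

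**Figure D4:**
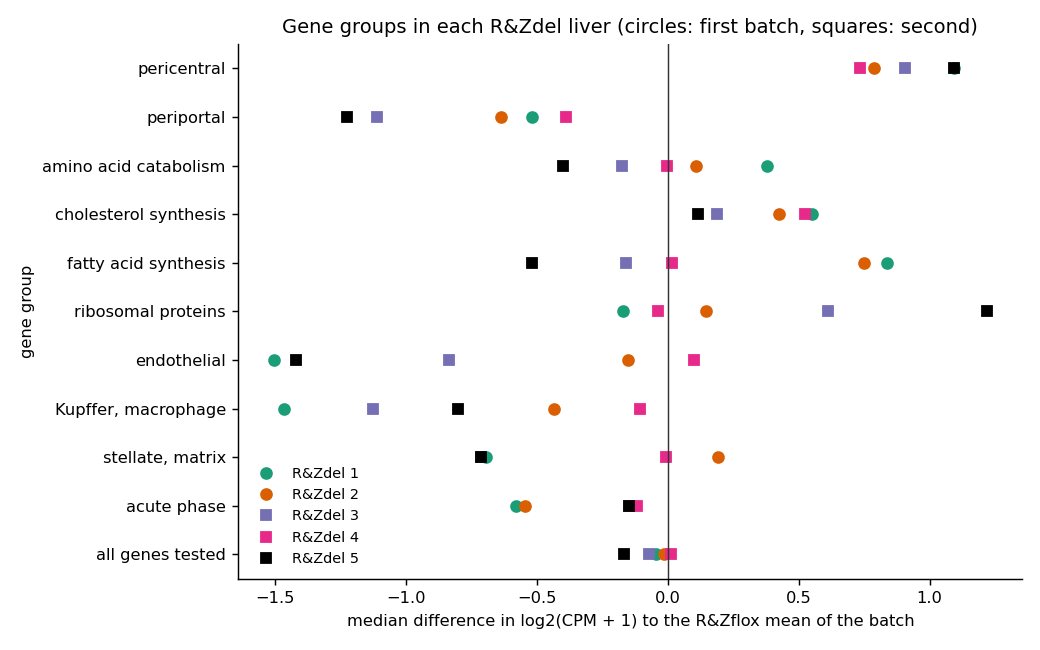
Median over the members of 10 gene groups of the difference in log2(CPM + 1) between each R&Zdel library and the mean of the R&Zflox libraries of its batch (x axis), 1 point per R&Zdel library, with the median of all genes tested in the lowest row. The pericentral points lie from 0.73 to 1.09 and the periportal points from −1.23 to −0.39, whereas the endothelial points reach from −1.51 to 0.10 and the ribosomal points from −0.17 to 1.22.

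Of the 58 genes called, 29 stood in no list. Those that rose included *Slc13a3*, a dicarboxylate carrier, with 55.03, 56.1, 51.3, 15.4 and 64.9 CPM in R&Zdel and 10.04, 9.09, 0.453, 0.297 and 33.5 CPM in R&Zflox livers (log2 change 2.92, SE 0.72, adjusted p = 0.0892), called in 2 of the 10 fits that left out 1 library. R&Zdel 4 and R&Zflox 5 stood apart from their groups. *Blvrb*, a biliverdin reductase, had 624, 599.9, 686, 349.9 and 1062 CPM against 309.8, 220.4, 222, 186 and 238 CPM without overlap (log2 change 1.47, SE 0.24, adjusted p = 0.00226). *Lhpp*, a histidine phosphatase, had 319, 233, 222, 89.98 and 229.9 CPM against 54.6, 98.9, 44.2, 47.9 and 93.1 CPM (log2 change 1.83, SE 0.36, adjusted p = 0.0143), and *Ang*, the secreted ribonuclease angiogenin, had 1089, 1391, 1686, 989.5 and 2843 CPM against 658, 642, 468, 482 and 1017 CPM (log2 change 1.40, SE 0.26, adjusted p = 0.00982). In both of these R&Zdel 4 lay within the range of the controls. *Ccdc85b* rose by 2.06 (SE 0.38, adjusted p = 0.0075) and *Rgp1* by 2.07 (SE 0.46, adjusted p = 0.0408). *Rgp1* lost its call without R&Zdel 5 and without any 1 of R&Zflox 2, 3 and 4, having 126 CPM in R&Zdel 5 against 21.6 to 77.6 in the other mutants.

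Those that fell included *Sfxn1*, a carrier of serine into mitochondria, which had 16.2, 23.6, 32.2, 51.3 and 15.3 CPM in R&Zdel livers. R&Zflox livers had 113, 158, 136, 205 and 57.2 CPM, each of them above each mutant, and the change was −2.27 (SE 0.31, adjusted p = 0.000289). *Aspg*, an asparaginase, had 41.7, 74.4, 57.2, 83.5 and 89.2 CPM against 276, 199.9, 214, 179 and 182 CPM (log2 change −1.54, SE 0.26, adjusted p = 0.00281). *Rida*, which hydrolyses reactive imines formed during serine breakdown, had 439.8, 254, 172, 397 and 75.8 CPM against 1009, 894, 1221, 1071 and 1272 CPM (log2 change −1.94, SE 0.34, adjusted p = 0.00407). The genotypes did not overlap for either gene, and both remained called with any 1 library left out.

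Also lower were *Cryl1*, an enzyme of the glucuronate pathway, with 2.37, 5.07, 13.2, 18.8 and 0.143 CPM in R&Zdel and 61.03, 80.2, 42.04, 53.7 and 27.3 CPM in R&Zflox livers (log2 change −2.77, SE 0.64, adjusted p = 0.0575), and *Plxna2*, a semaphorin receptor, with 1.11, 1.04, 0.538, 2.85 and 0.286 CPM against 10.3, 20.2, 32.2, 9.60 and 11.5 CPM (log2 change −3.64, SE 0.70, adjusted p = 0.0113). *Car14*, a membrane carbonic anhydrase, had 8.96, 17.4, 9.21, 10.2 and 22.5 CPM against 48.9, 57.2, 54.2, 57.05 and 34.1 CPM (log2 change −2.01, SE 0.35, adjusted p = 0.00384). None of these 3 overlapped between the genotypes. *Id2*, an inhibitor of basic helix-loop-helix factors, had 119.9, 111, 147, 181 and 232 CPM against 216, 357, 355, 375 and 348 CPM (log2 change −1.06, SE 0.23, adjusted p = 0.03). *Aqp8*, a water channel, had 139, 267, 92.01, 86.1 and 130.1 CPM against 439, 182, 485, 263 and 559.7 CPM (log2 change −1.55, SE 0.35, adjusted p = 0.0511). Both had a mutant inside the control range. *Gm4952*, *Tstd1*, *Tars* and *Tmsb4x* fell by 1.69, 1.51, 1.17 and 1.02 on the log2 scale, each without overlap. *1810058I24Rik*, *Aars*, *Aldh16a1*, *Apol9a*, *Aspscr1*, *Ddx24*, *Gne*, *Plcg1*, *Slc16a11*, *Spp2* and *Vgll4* rose by 1.003 to 1.81.

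The libraries of 1M and 3M have their own controls and show the same genes at earlier times. Of the 32 genes called higher at 7M, 27 had the same direction at 1M and 31 at 3M, and of the 26 called lower 25 and 26, where 53.4% and 53.9% of all genes shared their direction with 7M. The model's terms for sex and batch are common to all times. The genes called higher had medians of 1.40, 0.86 and 1.29 at 7M, 1M and 3M, and the genes called lower had −2.04, −1.87 and −1.99. *Glul* had log2 fold changes of 2.32 at 1M and 2.91 at 3M, *Cyp2f2* −3.67 and −2.98, and *Alb* −1.45 and −1.14. *Sfxn1* had −2.32 and −2.21. The 5 genes called higher that had the other direction at 1M were *Cyp2a4* (−0.76, with 5.36 at 7M), *Vgll4* (−0.39, with 1.33), *Fasn* (−0.10, with 1.20), *Spp2* (−0.04, with 1.01) and *Slc16a11* (−0.03, with 1.81), and among the genes called lower it was *Tmsb4x* (0.09, with −1.02). *Plcg1* and *Ddx24* had 0.12 and 0.13 at 1M, beside 1.26 and 1.30 at 7M. At 3M *Vgll4* and *Plcg1* stood at −0.48 and 0.01.

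Whether an effect at 7M differed from that at an earlier time was tested as an interaction. No gene passed the adjusted threshold in edgeR's quasi-likelihood test, with 0 called against 1M and 0 against 3M, while 751 (5.85%) and 537 (4.18%) had an unadjusted p below 0.05. The smallest adjusted p was 0.349 against 1M and 0.731 against 3M. DESeq2 called 105 and 32. Among the genes called at 7M, 12 had an unadjusted p below 0.05 against 1M and 9 against 3M, which is a description because their effect at 7M chose them. At 1M the endothelial and Kupffer cell lists had medians of 0.09 and −0.05, then −0.84 and 0.37 at 3M, beside −0.67 and −0.73 at 7M. Their members with an unadjusted p below 0.05 for the interaction numbered 5 of 31 and 0 of 25 against 1M (5.85% of all genes), and 0 of 31 and 4 of 25 against 3M (4.18%). The pericentral list had 1.13, 1.19 and 0.96 in the same order, and the periportal list −0.93, −0.84 and −0.75.

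Each batch holds R&Zdel and R&Zflox livers of 7M and can be compared on its own, 2 against 2 and 3 against 3. In the first batch, where both R&Zdel mice are male and 1 control is female, 1 gene was called, and in the second, with males alone, 3. Of the 58 genes called with both batches, 56 could be tested in the first, where 55 had the same direction, and 58 of 58 had it in the second. These batches supplied the calls, so that this is a description. Picked in the second batch alone, at an unadjusted p below 0.05 and a log2 fold change beyond 1 or −1, 432 genes could be looked up in the first, and 341 (78.9%) had the same direction there, where 58.5% of all 9979 genes measured in both did. In reverse, 382 genes were picked in the first batch and 289 (75.7%) had the same direction in the second. This lookup was chosen after the data were seen. *Glul* had 1.91 in the first and 3.18 in the second batch, *Gulo* 1.64 and 1.61, *Cyp2f2* −3.39 and −2.41, and *Alb* −1.45 and −1.66.

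**Figure D5:**
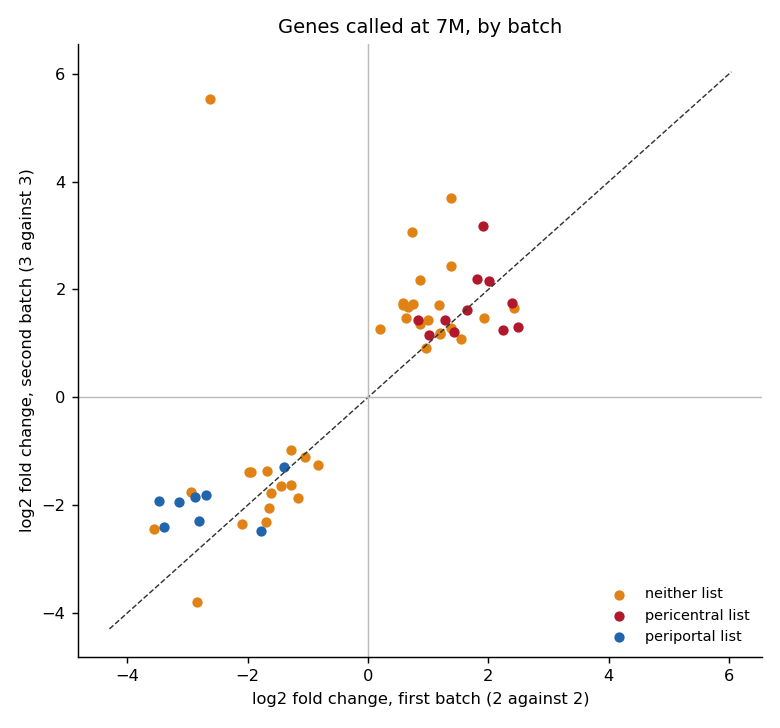
Log2 fold change of R&Zdel over R&Zflox livers in the first batch (x axis, 2 against 2 libraries) and in the second (y axis, 3 against 3) for the 56 called genes that could be tested in both, coloured by list, with a line of equality. All but 1 of the genes lie in the quadrants of equal direction.

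The mutants differed in the size of the effect. The genes called higher had a median log2 ratio to the R&Zflox livers of their batch of 1.17, 1.21, 1.68, 0.86 and 1.97 in R&Zdel 1 to 5, and the genes called lower of −2.02, −1.72, −2.08, −1.51 and −2.79. R&Zdel 4 had the smallest and R&Zdel 5 the largest values in both directions, and these are the libraries with the smallest and the largest share of counts on short genes. These medians rest on genes chosen in the same libraries and carry no test. The part of that share, of the degree of recombination and of cell composition in the difference between the mutants was not tested.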

How the data were processed

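Mouse liver RNA was amplified by SMARTSEQ2 and sequenced, and the deposited values are raw counts of reads per gene, which the authors made, per the labels and the submitters' processing notes, with Trim Galore, STAR 2.5.0a and featureCounts (1.5.0-p1 and 1.5.0-p3) on mm10. Counts of the first batch were made without regard to strand, so that overlapping genes and near-identical copies share reads. Of 55 samples, 53 had counts in the files used here, and the 34490 gene symbols shared by both batches were kept.

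Genes were kept if 3 or more libraries exceeded a CPM of 1, and were tested with edgeR 4.0.16 in R 4.3.3 (TMM scaling, quasi-likelihood test, two-sided, Benjamini-Hochberg adjustment over all genes tested). The model held 1 term for each genotype and time point, sex and batch over the 25 undamaged libraries. The SE is the fold change divided by the root of the F statistic. Time points were compared as interactions. DESeq2 1.42.0 and the other settings given in the closing part were alternatives. The labels do not say that each library is a separate mouse, so that p-values measure the spread between these libraries.

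The gene lists and the genes named were chosen with earlier results of these data known. Named are the deleted genes, the 12 largest increases and decreases among called genes with a mean CPM above 5 in either genotype, the called members of each list and up to 4 members in all by smallest p, the genes the study names for undamaged liver, and the remaining called genes. Lists are described by counts and medians, with no test. On data simulated for this comparison (12374 genes), 60% and 66% of genes changed by 2 and −2 on the log2 scale were called, and 48% and 24% of those changed by 1.5 and −1.5, while 10 of 109 calls were of unchanged genes. The changes were set only in genes with a mean CPM above 5. The simulated spread was estimated without a genotype term, so that it includes real genotype differences. These shares therefore do not give the power in the real data. Replicate numbers were not used as pairs. Deviations from the genotype means correlated at 0.44 to −0.22 between libraries of the same number, which does not settle whether the numbers pair them. The batches were not removed from these deviations, and number 2 joins libraries of different batches. R&Zdel 2 and R&Zflox 1, of the same batch and different numbers, had 0.63. A mutant library with conflicting title and labels, which the study's list leaves out, was not in the model, nor were 1 library of 3M with conflicting genotype and 3 libraries without a group. The values of 2 of the genes that the rule names are not reported here. Python 3.11.15, pandas 2.3.3, numpy 2.4.6 and matplotlib 3.10.9 were used for tables and figures.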

Additional observations from a re-analysis of the deposited data

Results flagged for a closer look

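In 182 groups of 5 libraries (91 named genes, both genotypes), 1 library lay far from the other 4 by Dixon's test in 15 (8.24%). The chance rate of about 1 in 20 holds for independent values with a normal distribution. Here CPM without a log were used and the genes share the same libraries, so that no excess can be read from this share. R&Zdel 4 was the far library for *Cps1* (1561 CPM), *Gstm2* (153), *Prodh* (227) and *Slc13a3* (15.4), and stood closer to the controls than the other mutants did in each. R&Zflox 1 was far for *Cyp7a1* (43.3 CPM), *Gulo* (635), *Id2* (216) and *Nags* (77.6). R&Zflox 5, the female control, was far for *Cyp2a4* (234 CPM), *Slc16a11* (35.1) and *Spp2* (514). R&Zdel 5 was far for *Ddx24* (147 CPM) and *Rnf43* (77.7), R&Zdel 1 for *Cyp2a4* (33.4) and R&Zflox 2 for *Gstm2* (128).

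A further mutant library is labelled undamaged and 7 months in its characteristics but 3M in its title, and the comparisons above do not use it. It had 56.6 unscaled CPM of *Xist* and at most 0.0901 of the 4 Y-linked genes measured, as a female does, whereas 4 of the 5 R&Zflox libraries are male, and the part of sex in its values was not tested. The 10 pericentral genes called at 7M and described above were all higher in it than in every R&Zflox library, as unscaled CPM and with no test. They were *Cyp2e1* at 14094, *Gulo* at 1412, *Glul* at 1019, *Cyp2a5* at 970, *Gstm3* at 649, *Lect2* at 604, *Gstm2* at 523, *Slc1a2* at 436, *Rhbg* at 157 and *Slc16a10* at 138. Of the 8 periportal genes called lower, 7 were below every R&Zflox library, and *Ctsc* at 61 was within their range. Not all values lay in the R&Zdel range. *Cyp2e1* was below every R&Zdel library (21220 to 28132), and *Gstm2*, *Gstm3*, *Lect2* and *Rhbg* were above every one. Of the periportal genes, *Ctsc* and *Aldh1b1* were above every R&Zdel library and *Cyp2f2* was below every one.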

How the results depend on the processing

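The number of genes called at 7M was 58. It was 95 with no filter on low counts, 88 with edgeR's likelihood ratio test, 92 with DESeq2, 21 with the 7M libraries alone and 30 with these but without sex, 38 over male libraries, 3 in the second batch alone, 1 in the first, and 1132 at an unadjusted p below 0.05 with a log2 limit of 0.4. Leaving out 1 library gave 38 (without R&Zflox 3) to 204 (without R&Zdel 4), and 32 genes were called without R&Zdel 5 and R&Zflox 5, an alternative added after the data were seen, with values of 1.14 for *Rnf43* and 0.965 for *Znrf3*. With the replicate block edgeR called 0 genes of 11274 tested and 312 had an unadjusted p below 0.05. Whether the replicate numbers pair the libraries was not settled.

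The interaction with 1M called 10 genes with no filter, 30 with the likelihood ratio test and 105 with DESeq2, and that with 3M 4, 32 with DESeq2 and 1 over male libraries. *Rnf43* passed the threshold at 1.51 with the likelihood ratio test, and leaving out 1 library gave 1.18 to 1.67, with a call at 1.66 without R&Zdel 4. *Znrf3* passed at 1.10 with that test and at 1.10 with the 3M library of conflicting genotype, and ranged from 0.998 to 1.24, with a call at 1.01 without R&Zdel 4. *Cyp2a4* turned to −2.62 in the first batch, which holds the female control. The causes were not tested. Of 525 list medians under these settings 40 moved beyond the spread and 13 changed sign. In the simulated data, whose spread was estimated without a genotype term, many changes of 1.5 on the log2 scale were missed.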
